A study of Homo sapiens with 3 samples.

Results

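The Polycomb repressive complex genes were examined after 6 h of MZ1 treatment in OCI-Ly10 cells. They are the 10 listed subunits of Polycomb repressive complexes 1 and 2 (PRC1 and PRC2), found by matching the Ensembl IDs of the count table, without their versions, to GENCODE release 29 symbols. All 10 were among the 15808 genes of the table, 7 of them PRC2 genes (EZH2, EZH1, EED, SUZ12, RBBP4, RBBP7 and JARID2) and 3 of them PRC1 genes (RNF2, RING1 and BMI1). OCI-Ly10 is an established human lymphoma line that models the activated B cell-like form of diffuse large B cell lymphoma. MZ1 is a degrader that brings BET bromodomain proteins to the VHL ubiquitin ligase. RNA from 3 replicate libraries was sequenced, and the labelled samples form 1 group. The 6 h are each sample's own time label, while the treatment protocol, shared by the samples, also names a longer treatment of days. Untreated cells were not analysed here, so the levels, their order and their spread are described without an MZ1 effect. Whether the replicates were separate cultures is not in the labels, so p-values speak only of these 3 libraries, whose spread may be technical. Tests of differences between libraries set them against counting noise alone.

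PRC2 places methyl groups on lysine 27 of histone H3. EZH2 or EZH1 is its catalytic subunit, EED and SUZ12 hold the enzyme active, RBBP4 and RBBP7 bind histones, and JARID2 is an accessory subunit that helps bring the complex to chromatin. PRC1 places ubiquitin on histone H2A through RNF2 or RING1, paired with a PCGF protein such as BMI1, and both complexes keep genes silent. In the B cell lineage EZH2 is known as a gene of dividing germinal centre cells, where it holds back plasma cell genes and inhibitors of the cell cycle, and mutated or abundant EZH2 is a drug target in lymphoma.

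Replicates 1, 2 and 3 held 5474462, 1441246 and 1314812 counts. Expression is given as CPM, counts per 1e+06 of the TMM-scaled library size, and 1 count was worth 0.20, 0.629 and 0.767 CPM in replicates 1, 2 and 3. The libraries were not equal, and 6728 of the 10016 genes whose mean count reached 10 (67.2%) varied among the 3 libraries beyond counting noise (chi-square test, adjusted p under 0.05). Pearson's r of log2(CPM + 0.5) across the 7510 genes of at least 10 CPM, which are not independent replicates, was 0.889 for replicate 2 with replicate 3, 0.789 for replicate 1 with replicate 3 and 0.735 for replicate 1 with replicate 2. All 7 B cell markers and all 4 markers of the activated B cell-like subtype reached 1 CPM in every library. Of 6 T cell markers listed, CD2 and CD4 were analysed and held at most 7 counts in a library. None of the listed NK cell or erythroid markers was analysed. Among the 3 myeloid markers analysed of 5 listed, ITGAM was the highest at 19.4 ± 3.23 CPM (SD, n = 3). LYZ, another of them, had 31, 10 and 5 counts in replicates 1, 2 and 3. The epithelial marker KRT8 had 45.8, 17.6 and 33.8 CPM in replicates 1, 2 and 3, and CDH1 at most 5 counts. The fibroblast marker COL1A1 had 24, 3 and 3 counts, and PDGFRB at most 4.

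EZH2 and EZH1, the catalytic paralogues, differed 8.70-fold per kb of exons by their mean log2 ratio. Their promoters are shown from RefSeq (GRCh38.p14), as the 250 bases before and 50 after the annotated start, read 5′ to 3′ on the gene's own minus strand. Capitals mark CCAAT boxes (CCAAT or, on the other strand, ATTGG) and E2F words (TTTCCCGC, TTTCGCGC, TTTGCCGC or TTTGGCGC on either strand). CCAAT boxes bind NF-Y, and E2F factors act on genes of dividing cells. The motifs were chosen after the values were seen.
EZH2, chr7:148884242-148884541: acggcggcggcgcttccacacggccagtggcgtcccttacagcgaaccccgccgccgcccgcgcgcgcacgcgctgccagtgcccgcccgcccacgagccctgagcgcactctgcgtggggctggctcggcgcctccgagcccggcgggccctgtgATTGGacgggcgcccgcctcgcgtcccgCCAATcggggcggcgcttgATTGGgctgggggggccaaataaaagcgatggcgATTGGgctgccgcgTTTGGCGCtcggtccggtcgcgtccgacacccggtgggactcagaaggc
EZH1, chr17:42744991-42745290: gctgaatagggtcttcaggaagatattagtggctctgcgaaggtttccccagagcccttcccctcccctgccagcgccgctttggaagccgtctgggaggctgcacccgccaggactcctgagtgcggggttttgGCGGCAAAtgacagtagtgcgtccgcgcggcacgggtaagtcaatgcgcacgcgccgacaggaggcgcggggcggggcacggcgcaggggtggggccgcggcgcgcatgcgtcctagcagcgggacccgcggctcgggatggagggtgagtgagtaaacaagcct
The EZH2 promoter held 4 CCAAT boxes and 1 E2F word, and the EZH1 promoter no CCAAT box and 1 E2F word, none overlapping. Of 35116 RefSeq promoters of the same length, 34.6% held at least 1 CCAAT box, 0.991% at least 4, and 3.31% at least 1 E2F word. RefSeq lists 15 promoters for the 10 genes, and a second EZH2 promoter, which lies downstream, held neither motif. SUZ12 was the other gene with an E2F word, and CCAAT boxes were found in 8 of the 15 promoters, belonging to 6 of the 10 genes. These matches describe letters in a window and not bound sites.

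All 10 Polycomb genes were expressed at 1 CPM or more in each library, as were 68.0% of the genes in the table. EZH2, the main catalytic subunit of dividing cells (ENSG00000106462.9, GRCh38 chromosome 7, 148807383 to 148884321, minus strand), had 195, 481 and 200.2 CPM in replicates 1, 2 and 3, from 976, 766 and 261 counts. Replicate 2 stood 2.47-fold above replicate 1, and the other libraries were nearly equal. EZH1, the paralogue more typical of resting cells (ENSG00000108799.11, chromosome 17, 42700275 to 42745049, minus strand), had 43.99, 51.5 and 45.3 CPM, from 220, 82 and 59 counts. Its libraries lay within 1.17-fold of each other, the second smallest range of the 10 genes after the 1.15-fold of RBBP4.

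The scaffold genes of PRC2 lay on different levels. SUZ12 (ENSG00000178691.9, chromosome 17, 31937018 to 32001045, plus strand) had 116, 159 and 163 CPM, lowest in replicate 1. EED (ENSG00000074266.16, chromosome 11, 86244544 to 86278813, plus strand), which recognises methylated lysine 27, had 17.4, 13.2 and 9.97 CPM from 87, 21 and 13 counts. The exact 95% Poisson intervals of EED, which like all intervals and floors here cover counting error only, overlapped between libraries (13.9 to 21.5 CPM in replicate 1 and 5.31 to 17.1 in replicate 3). JARID2 (ENSG00000008083.12, chromosome 6, 15246296 to 15522040, plus strand) had 8.20, 10.7 and 12.3 CPM from 41, 17 and 16 counts.

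Both histone-binding genes were abundant. RBBP4 (ENSG00000162521.17, chromosome 1, 32651142 to 32686211, plus strand) had 240.1, 211 and 242 CPM, and RBBP7 (ENSG00000102054.16, chromosome X, 16839283 to 16870414, minus strand) had 175, 139 and 137 CPM. Both proteins also serve other chromatin complexes, so their transcripts are not a measure of PRC2 alone. RBBP4 exons overlap those of SYNC on the opposite strand over 18.01% of their bases, and RBBP7 exons those of TXLNG over 2.42%; the sources used here give no strand setting for the counting, so reads of such partners cannot be told apart.

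The PRC1 genes had fewer CPM than EZH2, EZH1, SUZ12, RBBP4 and RBBP7 in every library. RNF2, the main H2A ubiquitin ligase (ENSG00000121481.9, chromosome 1, 185045364 to 185102608, plus strand), had 13.4, 20.1 and 19.2 CPM, lowest in replicate 1. Its paralogue RING1 (ENSG00000204227.4, chromosome 6, 33208495 to 33212722, plus strand) had 11.996, 4.40 and 9.21 CPM, from 60, 7 and 12 counts. BMI1, the PCGF partner known for repressing the CDKN2A locus (ENSG00000168283.12, chromosome 10, 22321211 to 22331484, plus strand), had 21.4, 15.1 and 11.5 CPM, from 107, 24 and 15 counts. BMI1 shares 21.3% of the 50-base stretches of its transcripts with the read-through gene COMMD3-BMI1, so its counts can be incomplete or mixed.

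**Figure D1:**
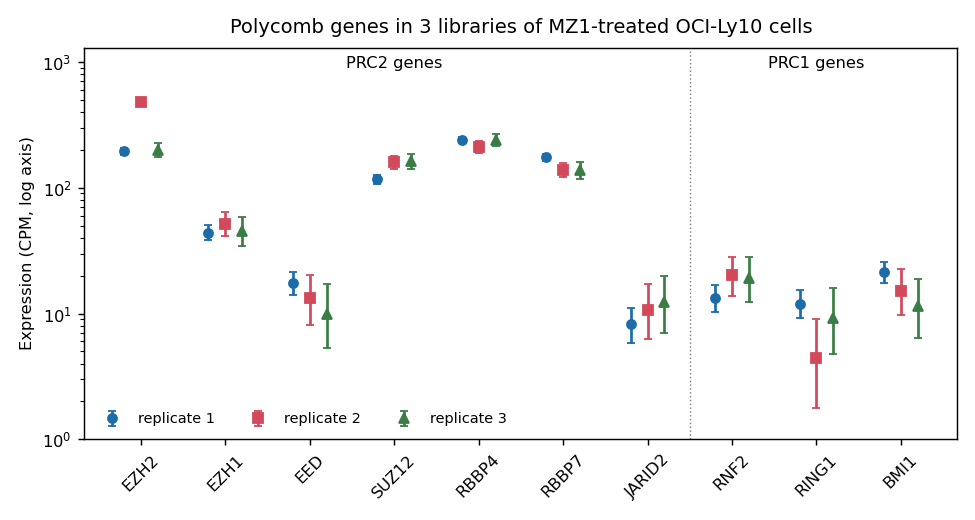
Expression of the 10 Polycomb genes (CPM, log axis) in replicates 1, 2 and 3, with exact 95% Poisson intervals for counting error. EZH2 in replicate 2, at 481 CPM, stands above its other libraries at 195 and 200.2 CPM, while the 3 PRC1 genes lie between 4.40 and 21.4 CPM.

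Levels of different genes were compared per kb of merged exons. EZH2 was the highest at 64.6 ± 36.2 CPM per kb (SD, n = 3), the form used for all means below. RBBP4 had 24.4 ± 1.85, SUZ12 22.3 ± 3.93 and RBBP7 20.3 ± 2.88 CPM per kb, and they form a middle group. EZH1 followed at 6.72 ± 0.579, RING1 at 4.69 ± 2.11, RNF2 at 4.31 ± 0.893 and BMI1 at 3.73 ± 1.17 CPM per kb. EED at 1.93 ± 0.530 and JARID2 at 1.73 ± 0.342 CPM per kb were the lowest. The median of the 10 genes was 5.70 CPM per kb, beside 2.22 over all genes of the table with a GENCODE match. EZH2 lay at percentile 96.6 of these genes and JARID2 at percentile 44.6.

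Neighbours in this order differed in the same direction in every library at 3 of the 9 steps. EZH2 lay above RBBP4 by a log2 ratio per kb of 1.27 ± 0.85, RBBP7 above EZH1 by 1.58 ± 0.29 and BMI1 above EED by 0.94 ± 0.06. At the other 6 steps the mean log2 ratio, between 0.08 and 0.55, was smaller than its SD, and the order turned in 1 of the 3 libraries. The exact two-sided sign-flip permutation test cannot go below p = 0.25 with 3 libraries, so no step could pass 0.05. The order rests on the length used: by the longest transcript of each gene EED stood above RNF2, RING1 and BMI1, and without replicate 1 EED and not JARID2 was the lowest.

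**Figure D2:**
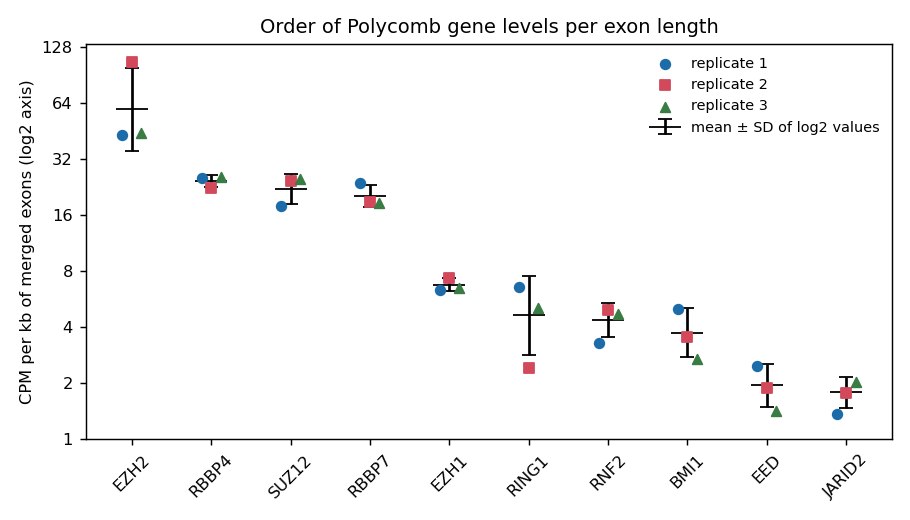
CPM per kb of merged exons (log2 axis) of the 10 genes in falling order of their mean, with 1 point for each library and bars for the mean ± SD of log2 values. EZH2 is the highest in all 3 libraries, RBBP4, SUZ12 and RBBP7 overlap, and EED and JARID2 are the lowest.

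Within the PRC2 core the subunit transcripts were far from equal. EZH2 lay above SUZ12 by a log2 ratio per kb of 1.41 ± 0.66, a 2.66-fold difference, in 3 of 3 libraries. Against EED the ratio was 4.92 ± 0.84, or 30.2-fold, and SUZ12 lay above EED by 3.50 ± 0.64, or 11.3-fold, each in 3 of 3 libraries. Merged exons of EED (7016 bases) are much longer than its longest transcript, and by the longest transcript the log2 ratio was 3.89 for EZH2 over EED and 2.70 for SUZ12 over EED. Against KDM6A, a demethylase that removes the PRC2 mark, EZH2 was higher by 4.44 ± 0.71 in 3 of 3 libraries. KDM6A is the lower of the demethylases analysed, at 2.66 CPM per kb beside 10.9 for KDM6B, whose ratio to EZH2 was not tested. JARID2 lay below AEBP2, an accessory subunit found in the same form of PRC2, by a log2 ratio of -1.75 ± 0.25 in 3 of 3 libraries. Each of these 5 ratios had an exact sign-flip permutation p of 0.25, the smallest that 3 libraries allow, and 0.281 after adjustment over 9 pairs.

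Of 4 paralogue pairs, 3 had the same gene higher in every library. EZH2 lay above EZH1 by a log2 ratio per kb of 3.12 ± 0.62, or 8.70-fold, in 3 of 3 libraries. It took 81.6%, 90.3% and 81.6% of the EZH1 and EZH2 counts in replicates 1, 2 and 3, with exact Clopper-Pearson 95% intervals of 79.3 to 83.8%, 88.1 to 92.2% and 76.9 to 85.7%. BMI1 lay above PCGF2, another PCGF partner, by 1.21 ± 0.44 in 3 of 3 libraries, from as few as 15 and 5 counts in replicate 3; exons of PCGF2 overlap opposite-strand genes over up to 32.7% of their bases. RBBP4 lay above RBBP7 by 0.27 ± 0.18 in 3 of 3 libraries, and by the longest transcript the ratio turned to -0.36. RNF2 and RING1 gave -0.08 ± 0.96, with RNF2 at 33.3%, 67.1% and 48.2% of the pair per kb in replicates 1, 2 and 3. The exact permutation p was 0.25 for the first 3 pairs and 0.75 for RNF2 and RING1 (0.281 and 0.75 after adjustment over 9 pairs). Between the longest transcripts, the longest identical run was 20 bases for EZH2 and EZH1, 24 for RBBP4 and RBBP7 and 12 for RNF2 and RING1. Other transcripts of these genes, and BMI1 with PCGF2, were not compared in this way.

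**Figure D3:**
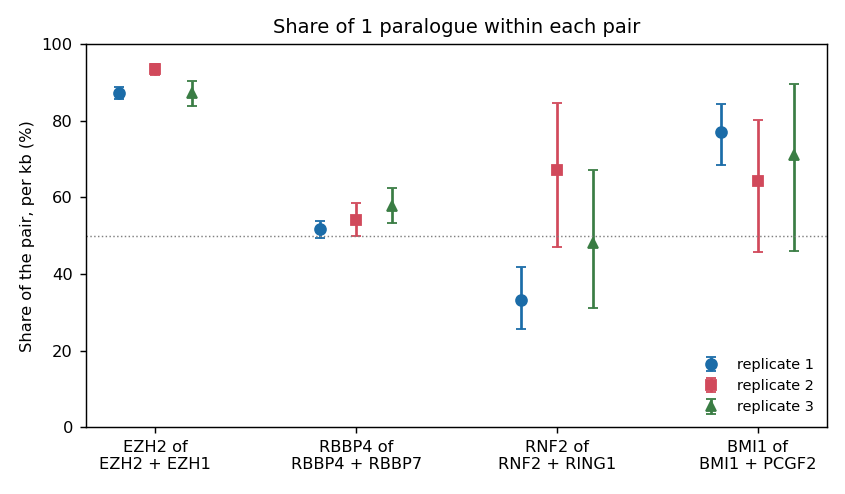
Share of the first gene of each pair in the pair's CPM per kb (%), in replicates 1, 2 and 3, with exact 95% intervals for counting error and a dotted line at 50%. EZH2 takes most of its pair in every library, and RBBP4 and RBBP7 are near equal. The share of RNF2 is below 50% in replicate 1, and its intervals in replicates 2 and 3 include 50%.

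Pseudogenes and other genes hold part of some transcripts. SUZ12 shares 7.66% of its 50-base stretches with other genes, mainly SUZ12P1, which had 74, 24 and 10 counts. RBBP4 shares 4.74%, mainly with its processed pseudogenes, RNF2 2.09%, RBBP7 1.32% and EZH2 0.742%, while JARID2 and RING1 share none. The treatment of such reads in the counting is not stated in the sources used here.

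The chi-square test over all genes called 4 of 10 members as varying among the 3 libraries (67.2% of all genes tested). These were EZH2 (adjusted p = 1.13e-87), SUZ12 (3.89e-06), RBBP7 (0.000995) and RING1 (0.0441). BMI1 (0.0516), RBBP4 (0.119), RNF2 (0.130), EED (0.152), JARID2 (0.386) and EZH1 (0.519) did not pass, which at these counts does not show that they were equal. Of the 10 genes 8 had an SD of log2(CPM + 0.5) below the 0.53 median of the genes tested. EZH2 at 0.74 and RING1 at 0.70 were the exceptions. The highest library was replicate 1 for 4 members, replicate 2 for 3 and replicate 3 for 3, beside 43.8%, 28.7% and 27.4% of the genes tested. The lowest library was replicate 1 for 5 members, replicate 2 for 2 and replicate 3 for 3, beside 32.1%, 40.2% and 27.7%.

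The calls rested on single libraries. Between replicates 1 and 3, which differed in 45.2% of genes, EZH2 gave a chi-square adjusted p of 0.792. It passed for replicate 2 against replicate 3 (2.09e-40) and against replicate 1 (9.73e-82). SUZ12 and RBBP7 passed in both comparisons with replicate 1 and gave 0.765 and 0.601 between replicates 2 and 3, where 33.8% of all genes differed and EZH2 was the only member called. RING1, too low to be tested without replicate 1, passed between replicates 1 and 2 (0.0180), where 56.2% of all genes differed, and not between replicates 1 and 3 (0.519). The calls of RING1 and RBBP7 also depended on the scaling. RING1 had an adjusted p of 0.0551 under DESeq2 size factors and 0.141 under column totals, and RBBP7 had 0.183 under column totals.

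Ratios between genes of the same library do not depend on how libraries are scaled, but they can still move with GC content, as described below. How often other gene pairs differ was not computed, while 67.2% of the single genes tested varied. An exact test of the counts of both genes in the 3 libraries, adjusted over 9 pairs, found that the ratio of EZH2 to SUZ12 differed between libraries (adjusted p = 2.65e-15), as did those of EZH2 to EZH1 (1.88e-07), to EED (2.93e-06) and to KDM6A (7.62e-06). Like the chi-square test, the exact test weighs differences against counting noise only. The log2 ratio per kb of EZH2 over SUZ12 was 1.28, 2.13 and 0.83 in replicates 1, 2 and 3, and that over EZH1 was 2.76, 3.84 and 2.76. Without replicate 2 the ratio to EZH1 gave an exact adjusted p of 1.0, and the ratio to SUZ12 still passed at 0.0195. The ratios of SUZ12 to EED (exact test, 0.00349) and RNF2 to RING1 (0.00395) also differed, while RBBP4 to RBBP7 (0.0612), BMI1 to PCGF2 (0.291) and JARID2 to AEBP2 (0.613) did not pass. In the exact test without replicate 1, SUZ12 to EED (0.613), RNF2 to RING1 (0.339), EZH2 to EED (0.248) and EZH2 to KDM6A (0.151) no longer passed. Without replicate 2, RNF2 to RING1 (0.240), EZH2 to EED (0.121) and EZH2 to KDM6A (0.252) did not pass.

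Differences between libraries moved with the GC content of transcripts, and members lay on both sides of that trend. Replicate 2 minus replicate 1, as a difference of log2(CPM + 0.5), had a median of 0.32 in the most AT-rich of 8 bins of genes of at least 10 CPM and -1.37 in the most GC-rich (median 61.0% GC). RING1, at 61.6% GC the richest member and in that last bin, differed by -1.35. Its paralogue RNF2, at 38.1% GC and in the most AT-rich bin, differed by 0.57. EZH2, at 42.7% GC, differed by 1.30, beside a bin median of 0.21, and a difference at least as large was seen in 530 of the 7510 genes (7.06%). EED, at 33.0% GC, differed by -0.39 beside a bin median of 0.32. The part of GC content in these differences, and in the pair ratios above, was not tested. The 7 B cell markers summed to 1699, 1133 and 2034 CPM in replicates 1, 2 and 3, with 6 of 7 lowest in replicate 2 (40.2% of the genes tested), and their part was not tested either. In these bulk samples fewer cells that express a gene and less RNA per cell cannot be told apart.

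**Figure D4:**
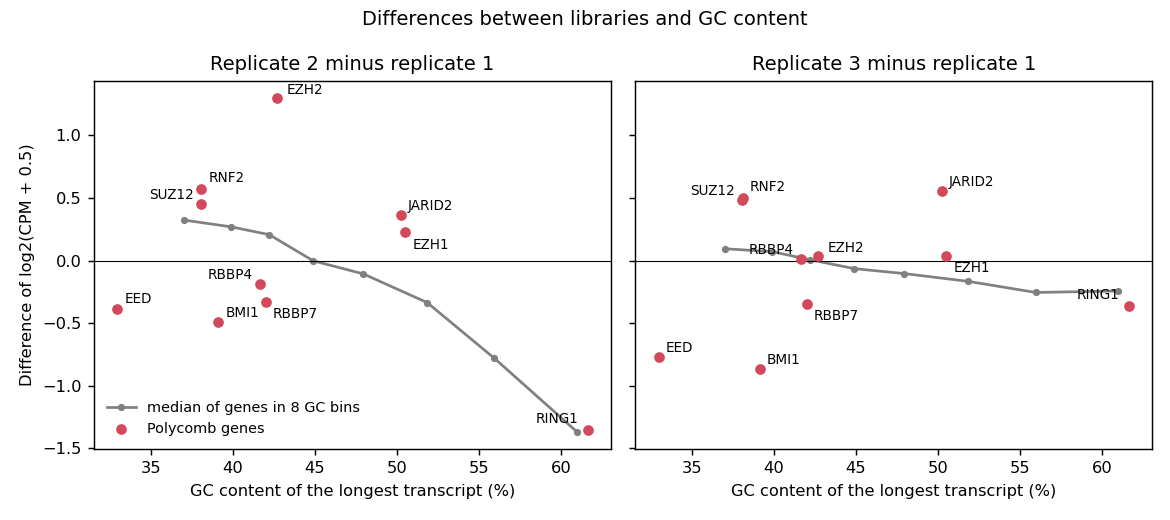
Difference of log2(CPM + 0.5) from replicate 1, for replicate 2 (left) and replicate 3 (right), against the GC content of the longest transcript (%), for the 10 Polycomb genes (points) and as the median of genes of at least 10 CPM in 8 GC bins (line). EZH2 at 1.30 lies far above the line in replicate 2 and at 0.04 near it in replicate 3, while RING1 lies close to the line in both.

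By the shape of its 3 values EZH2 was nearest to AHNAK, a large scaffold protein gene, at 276, 662 and 278 CPM, and to NAMPT, an enzyme gene of NAD synthesis, at 106, 269 and 108 CPM. The third was AP001273.1, at 21.6, 55.3 and 21.5 CPM. Likeness was the Euclidean distance of log2(CPM + 0.5) centred on its mean, over 3 libraries and 7510 genes, at 0.03, 0.04 and 0.06. Among the members themselves the closest pairs were EED with BMI1 (0.08) and SUZ12 with RNF2 (0.09). These are the smallest distances of all member pairs, and they take no account of counting error. EED and BMI1 rest on 13 and 15 counts in replicate 3, and neither was called as varying.

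Other genes of the Polycomb system were also expressed. The accessory genes of PRC2 had a median of 4.19 CPM per kb, and all 6 analysed reached 1 CPM in every library. EPOP, which links PRC2 to elongin, was the highest at 7.38 ± 1.12 CPM per kb, followed by AEBP2 at 6.11 ± 1.70 and MTF2, a Polycomb-like subunit that binds CpG-rich DNA, at 4.80 ± 1.22. LCOR, whose locus also encodes a PRC2 accessory protein, was the lowest at 1.33 ± 0.347. Between libraries 4 of 6 varied (67.2% of all genes tested).

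The other PRC1 genes had a median of 1.82 CPM per kb, below the 2.22 of all genes, and all 23 reached 1 CPM in every library. L3MBTL2, a subunit of variant PRC1, was the highest at 6.94 ± 2.19 CPM per kb, and PCGF5, a partner of variant PRC1, had 5.82 ± 2.03. BCORL1, a corepressor gene, was the lowest at 0.595 ± 0.233. Of 22 tested, 13 varied between libraries (67.2% of all genes tested). PCGF5 had 7.29, 6.66 and 3.51 CPM per kb in replicates 1, 2 and 3, above the 4.99, 3.52 and 2.69 of BMI1 in each library, a difference that was not tested.

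PR-DUB removes the ubiquitin that PRC1 adds. Its 9 analysed genes, of 10 listed, had a median of 4.96 CPM per kb. OGT, the O-GlcNAc transferase, led at 43.2 ± 7.80, followed by the deubiquitinase gene BAP1 at 12.5 ± 4.54 and HCFC1, a cofactor, at 11.6 ± 4.03. MBD5 was the lowest at 0.447 ± 0.174. In this list 7 of 9 varied (67.2% of all genes tested). Of the demethylases of lysine 27, KDM6B had 10.9 ± 1.65 CPM per kb and KDM6A 2.66 ± 0.458, and 1 of 2 varied, beside the same 67.2%.

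Genes of other complexes that share RBBP4 or RBBP7 spanned a wide range of levels. HDAC1, a histone deacetylase of the NuRD and SIN3 complexes, had 57.0 ± 4.05 CPM per kb, CHD4, the NuRD remodeller, 56.3 ± 11.5 and MTA2, another NuRD subunit, 32.2 ± 5.74, and CHAF1B, a subunit of the chromatin assembly factor, was the lowest at 1.81 ± 0.881. Exons of CHD4 overlap a same-strand gene over 46.9% of their bases and an opposite-strand gene over 10.2%, so its counts can be incomplete or mixed. The median of the 9 genes was 7.10 CPM per kb, and 8 of 9 varied between libraries (67.2% of all genes tested).

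Most of the analysed genes known as Polycomb targets had few or no counts. Of 32 listed, 14 were analysed here, and 5 of these had no count in any library (HOXA10, HOXA11, HOXA13, CDKN2A and CDKN2B), so that with 3 counts per library as the limit, levels up to 0.60 CPM in replicate 1, 1.89 in replicate 2 and 2.30 in replicate 3 are allowed. A further 6 stayed below 1 CPM on average, among them SOX2 with 7, 1 and 0 counts. The 3 expressed ones were IRF4 at 68.0 ± 21.3 CPM per kb, CDKN1A, a CDK inhibitor gene, at 63.2 ± 31.8 and PRDM1, a regulator of plasma cell differentiation, at 10.5 ± 1.58. IRF4 is also a marker of the activated B cell-like subtype, and 2 of 3 tested targets varied between libraries, beside 67.2% of all genes tested. Over the whole table, 551 of 15808 genes had no count in any library, and 13174 reached 1 CPM on average. Whether a gene without counts is deleted, silent or merely unmeasured cannot be told from these counts.

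**Figure D5:**
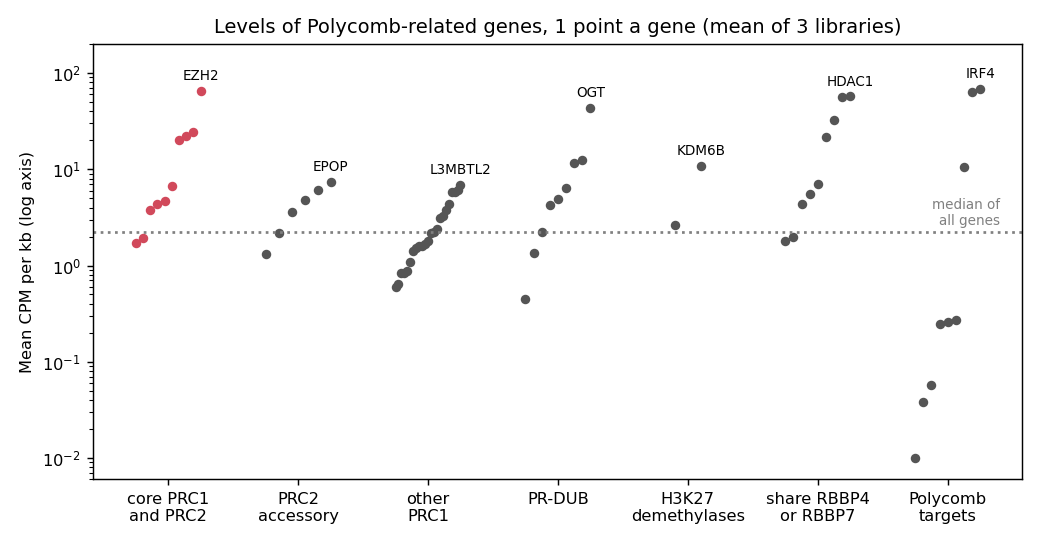
Mean CPM per kb of merged exons (log axis) for the 10 Polycomb genes and for related gene lists, 1 point for each gene, with the highest gene named and the median of all genes (2.22) as a dotted line. The 5 target genes with no count are not drawn, and EZH2 at 64.6 lies near HDAC1 at 57.0 and IRF4 at 68.0.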

How the data were processed

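RNA was measured in 3 libraries of OCI-Ly10 cells. Per the labels' protocols, 1 µg of total RNA, extracted with Trizol, went into an Illumina TruSeq kit. The deposited table of counts holds raw read counts per Ensembl gene, and a second deposited table holds the authors' log2 CPM values. STAR, edgeR and hg38 are named, per the submitters' processing notes; the sources used here give no versions, counter, strand setting or annotation release. Totals of 5474462, 1441246 and 1314812 counts were scaled by TMM (edgeR 4.0.16, R 4.3.3). Symbols, exon lengths, positions and transcript sequences came from GENCODE 29 (GRCh38), matched for 15668 of 15808 IDs, and GC content was taken from each gene's longest transcript. Differences are on the log2(CPM + 0.5) scale, so those of low genes are understated. Variation among libraries was tested with a chi-square test against equal expression (Poisson; mean count of at least 10; Benjamini-Hochberg adjusted p over all genes, threshold 0.05), with the exact 2 by 3 test of pair counts and the sign-flip permutation test in Python 3.11.15 (scipy 1.17.1). These tests compare libraries, not conditions. The chi-square and exact tests, but not the sign-flip test, were tried on simulated Poisson counts, which hold no spread beyond counting noise. Named are the 10 members, both genes of each pair, the 3 highest and the lowest of each other list per kb, the 3 genes most like EZH2 in pattern, and cell type markers; SOX2 and the uncounted targets were singled out after their values were seen. A gene that this rule would name is not reported here. Members, lists and pairs were chosen with earlier results of these data known. Alternatives were DESeq2 1.42.0 size factors, column totals, the deposited log2 values, other filters, pseudocounts and lengths, and leaving out each replicate.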

Additional observations from a re-analysis of the deposited data

How the results depend on the processing

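The median level of the 10 genes, 2.48 as log2((CPM + 0.5) per kb), was 2.91 with the deposited log2 values, 2.83 by the longest transcript and 2.45 to 2.62 when each replicate was left out. EZH2 was the highest gene under all 8 alternatives run for the levels. The tally of varying genes was 2854 to 5890 and that of varying members 1 to 4 when each replicate was left out, with 2854 genes and 1 member without replicate 1, the deepest library, where the test also has fewer counts. The log2 ratio of RBBP4 over RBBP7 reversed to -0.36 by the longest transcript. That of RNF2 over RING1, main value -0.08, reversed to 1.08 with no length correction, 0.040 by the longest transcript and 0.39 without replicate 1, with -0.58 to 0.39 when each replicate was left out. The other 7 pairs kept their direction under all alternatives run for them.

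Leaving out each replicate, the exact adjusted p of the ratio between libraries was 1.38e-07 to 1.0 for EZH2 to EZH1, 0.00238 to 0.339 for RNF2 to RING1, 9.82e-07 to 0.248 for EZH2 to EED, 0.0194 to 0.613 for SUZ12 to EED and 1.68e-06 to 0.252 for EZH2 to KDM6A. EZH2 to EZH1 failed without replicate 2, SUZ12 to EED without replicate 1, and the other 3 without replicate 1 or 2. The chi-square test in place of the exact test changed none of the 9 calls. In the chi-square test of single genes, column totals called EZH1 (adjusted p = 0.0394) and RNF2 (0.0172) and no longer RBBP7 (0.183) or RING1 (0.141). RING1 also failed with no filter on low counts (0.0563), and without replicate 2 BMI1 passed at 0.0494. The causes were not tested. Depth limits RING1, EED, BMI1 and JARID2 most, with 7 to 24 counts in replicates 2 and 3. No paired analysis was possible because the samples form 1 group.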
